A study of Mus musculus with 6 samples.

Results

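The transcripts of 10 genes of MHC class I antigen presentation, H2-K1, H2-D1, B2m, Tap1, Tap2, Tapbp, Nlrc5, Psmb8, Psmb9 and Psmb10, were followed in mouse articular cartilage of 2 ages. The genes were chosen by symbol and all 10 were found among the 33971 genes of the expression table. Articular cartilage of wildtype (WT) mice was sequenced in 3 libraries at 2 months and 3 libraries at 18 months, to describe how expression in this tissue changes with age. The study's methods describe male mice. The strain of the wildtype animals is not in the labels, and nothing in the labels says whether a library came from 1 animal or from pooled animals, so the p-values below measure the spread between these libraries only.

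MHC class I molecules display short peptides from inside the cell to CD8 T cells and NK cells. A peptide is cut by the proteasome, carried into the endoplasmic reticulum by the TAP transporter and fitted into the groove of a heavy chain that is held by beta-2-microglobulin. Nearly all nucleated cells carry class I molecules, blood cells at high levels, and interferons raise the whole pathway through factors that include the transactivator NLRC5 and interferon regulatory factors. Under interferon, and constitutively in many leukocytes, 3 inducible catalytic subunits, encoded by Psmb8, Psmb9 and Psmb10, replace the constitutive ones and form the immunoproteasome.

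The 18-month libraries held more blood-cell transcripts and fewer chondrocyte transcripts than the 2-month libraries, and 2-month replicate 2 stood apart from the other two 2-month libraries. Totals ran from 48171507 to 59085179 counts per library. The 16 chondrocyte markers summed to 14956 to 18567 FPKM (a fragment count divided by transcript length and by library size) at 2 months and to 362 to 1727 FPKM at 18 months, and all 16 were called lower. The summed FPKM of 8 markers of all leukocytes was 15.8 in 2-month replicate 1, 253 in replicate 2, 28.4 in replicate 3 and between 1690 and 1707 at 18 months. Xist, which is transcribed from the inactive X chromosome of females, had 88239 to 102417 counts in each 2-month library and 11 to 30 counts in each 18-month library, which goes against the methods' description for the 2-month libraries. Age, sex and the mixture of cells therefore cannot be told apart in this comparison. In such bulk tissue, more cells of a type and more RNA per cell cannot be told apart either. The fold changes of the 10 genes are given with and without 2-month replicate 2, as are the counts of called genes in each list whose count it changed.

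All 10 genes were higher in every 18-month library than in any 2-month library, and 8 of the 10 were called higher. To be called, a gene needed an adjusted p under 0.05 in edgeR's quasi-likelihood test (Benjamini-Hochberg over the 20397 genes tested) together with a log2 fold change beyond 1 in either direction. By the same rule 14.9% of all genes tested were called higher, and 35.6% had every 18-month FPKM above every 2-month FPKM. The median log2 fold change was 2.49 over the 10 genes and -0.02 over all genes tested. All 10 passed the filter on low counts, with a lowest count of 19 in any library. Tapbp missed the call by the size of its change and Nlrc5 by its adjusted p. Without 2-month replicate 2, 9 of the 10 genes were called higher, where 23.3% of all genes tested were. When the test was run against a fold change of 2 itself (edgeR's glmTreat), 5 of the 10 were called (6.7% of all genes tested), and Tap1, Psmb8 and Psmb10 were lost.

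**Figure D1:**
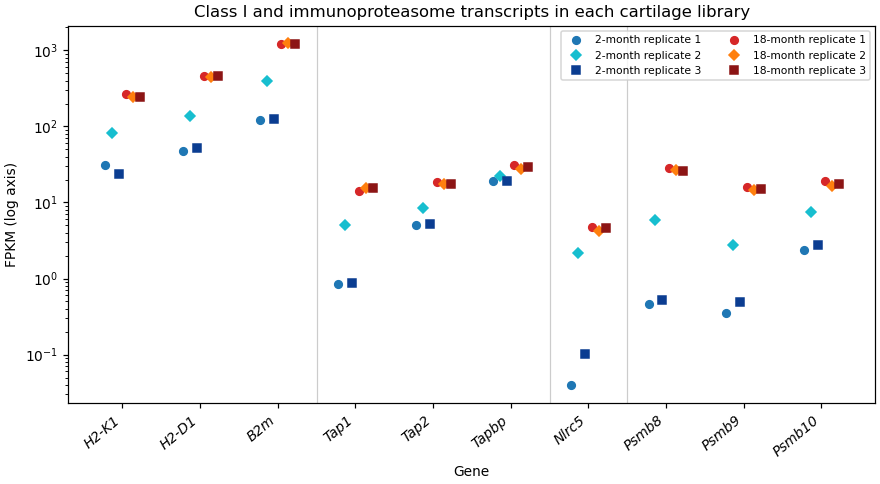
FPKM of each gene in the 6 libraries, on a log axis, with blue points for 2 months, red and orange points for 18 months and the symbol shape giving the replicate number. For every gene the 3 18-month points lie close together above the 2-month points, and 2-month replicate 2 lies between them and the other two 2-month libraries.

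The classical heavy chains and the light chain rose together by 5.34-fold to 5.62-fold. H2-K1 (ENSMUSG00000061232, chr17:33996017-34000347, minus strand), which encodes the K heavy chain, read 31.2, 81.2 and 23.6 FPKM in 2-month replicates 1, 2 and 3 and 266, 243 and 241 FPKM in 18-month replicates 1, 2 and 3. Its mean went from 45.3 ± 31.3 FPKM (SD, n = 3) to 249.9 ± 14.0 FPKM (SD, n = 3), a log2 fold change of 2.42 (SE 0.46) with an adjusted p of 0.0078 in edgeR's quasi-likelihood test. The ages did not overlap, and 2-month replicate 2 was 2.96 times the mean of the other two 2-month libraries. Without that library the log2 fold change of H2-K1 was 3.09 (SE 0.17).

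H2-D1 (ENSMUSG00000073411, chr17:35262730-35267499, plus strand), which encodes the D heavy chain, read 47.3, 137 and 51.8 FPKM at 2 months and 465, 447 and 454 FPKM at 18 months. Its 18-month libraries were more alike than those of any other of the 10 genes but B2m, with a coefficient of variation of 2.05%. H2-D1 rose by 2.49 on the log2 scale (SE 0.42), with an adjusted p of 0.0057 in edgeR's quasi-likelihood test, and by 3.10 (SE 0.14) without 2-month replicate 2. Heavy chains are close paralogs, and 35 of the 1953 windows of 150 bases along the longest H2-D1 transcript (1.79%) also occurred exactly in a transcript of H2-Q1. None of the windows along the longest transcripts of the other 9 genes occurred exactly in another gene's transcripts. Their other transcripts were not searched, so their counts are not shown to be free of shared sequence. Classical heavy chains also differ in sequence between mouse strains, and the effect of strain on their counts was not tested.

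B2m (ENSMUSG00000060802, chr2:122147686-122153083, plus strand), which encodes beta-2-microglobulin, was the most abundant of the 10 genes in every library. It read 122, 393 and 125 FPKM at 2 months and 1227, 1254 and 1211 FPKM at 18 months. In rank among all genes of its library, B2m was 275th, 73rd and 237th at 2 months and 32nd, 29th and 29th at 18 months. Its log2 fold change was 2.49 (SE 0.48) with an adjusted p of 0.0085 in edgeR's quasi-likelihood test, and 3.22 (SE 0.13) without 2-month replicate 2.

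The proportion of light to heavy chain transcripts overlapped between the ages. B2m was 1.55, 1.80 and 1.65 times the sum of H2-K1 and H2-D1 in FPKM at 2 months and 1.68, 1.82 and 1.74 times at 18 months. The means, 1.67 ± 0.125 and 1.75 ± 0.0704 (SD, n = 3 each), differed by less than the spread at 2 months, with a raw p of 0.4 and an adjusted p of 0.444 over the 10 ratios computed (exact permutation test, two-sided). H2-D1 stood at 1.52, 1.69 and 2.20 times H2-K1 at 2 months and at 1.75, 1.84 and 1.89 times at 18 months, and the ages overlapped (exact permutation p = 0.9, adjusted p = 0.9). With 3 libraries against 3 this test cannot give a p below 0.1.

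The promoters of H2-K1, H2-D1 and B2m are shown because letters in them can be read against the factors of the pathway. These 3 genes moved together over the 6 libraries, but that does not set them apart from the other class I genes followed. The Pearson r with the mean standardized profile of all the class I genes followed was 0.995 for H2-K1, 0.998 for H2-D1 and 0.999 for B2m. It was also 0.999 for Psmb9 and Psmb10, and it was lowest, at 0.976, for Nlrc5. Shared letters are therefore not tied here to shared movement. Each window runs from 250 bases before the RefSeq start to 50 bases from it (GRCm38.p6), 5′ to 3′ on the gene's strand, at chr17:34000298-34000597 (minus) for H2-K1, chr17:35262844-35263143 (plus) for H2-D1 and chr2:122147437-122147736 (plus) for B2m. The heavy chain windows were added after the sequences had been seen. Capitals mark matches, on either strand, to the kappaB consensus, to TTTCNNTTC or its longer form, the interferon-stimulated response element (TTTC, 2 bases of any kind, TTTC), which are letters bound by interferon regulatory factors, to TGACG (a core of cyclic AMP response elements) and to CCAAT.
H2-K1: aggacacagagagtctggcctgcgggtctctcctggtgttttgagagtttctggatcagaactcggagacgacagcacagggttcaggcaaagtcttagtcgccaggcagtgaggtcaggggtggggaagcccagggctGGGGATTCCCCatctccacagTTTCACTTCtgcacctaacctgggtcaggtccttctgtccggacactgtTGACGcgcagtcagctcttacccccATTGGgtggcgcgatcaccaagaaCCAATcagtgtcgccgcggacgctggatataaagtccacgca
H2-D1: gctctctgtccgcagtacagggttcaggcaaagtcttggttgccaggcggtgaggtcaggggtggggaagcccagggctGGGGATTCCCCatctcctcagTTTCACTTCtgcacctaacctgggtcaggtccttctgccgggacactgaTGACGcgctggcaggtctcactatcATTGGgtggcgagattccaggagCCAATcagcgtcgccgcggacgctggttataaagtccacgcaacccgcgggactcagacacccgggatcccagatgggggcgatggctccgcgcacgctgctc
B2m: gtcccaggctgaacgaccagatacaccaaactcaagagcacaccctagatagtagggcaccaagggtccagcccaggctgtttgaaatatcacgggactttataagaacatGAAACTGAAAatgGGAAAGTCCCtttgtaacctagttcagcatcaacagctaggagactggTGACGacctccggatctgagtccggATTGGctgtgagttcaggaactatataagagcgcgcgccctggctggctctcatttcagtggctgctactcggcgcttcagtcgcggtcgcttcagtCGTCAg

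Read from left to right, both heavy chain windows held a kappaB match, then TTTCNNTTC, then TGACG, then ATTGG, which is CCAAT on the other strand. In B2m a match to the interferon-stimulated response element on the other strand came before the kappaB match, and TGACG and ATTGG followed. The kappaB match began 111 bases before the start in H2-K1, 171 in H2-D1 and 126 in B2m. These positions depend on the RefSeq start. The letters TATAAA began 26 bases before it in H2-D1 but at position 36 after it in H2-K1, so the heavy chain positions do not line up. From the first base of TGACG to the first base of ATTGG lay 25 bases in all 3 windows. That spacing, picked out after the sequences had been seen, was found in 31 of 32851 promoter windows (0.0944%), of 27 gene symbols, among them the non-classical heavy chain gene H2-M3. Among all windows 8.46% held a kappaB match, 7.52% TTTCNNTTC, 3.44% the interferon-stimulated response element, 20.8% TGACG and 37.4% CCAAT, counting either strand. The heavy chain windows were identical at 211 of 239 aligned bases (88.3%), and H2-K1 and B2m at 57.8%. A match of letters is a description and does not show that a factor was bound.

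Of the peptide transport and loading genes, Tap1 and Tap2 were called higher and Tapbp was not. Tap1 (ENSMUSG00000037321, chr17:34187553-34197225, plus strand), which encodes the first subunit of the peptide transporter, read 0.858, 5.02 and 0.870 FPKM at 2 months and 14.2, 15.5 and 15.6 FPKM at 18 months. Without 2-month replicate 2, the log2 fold change of Tap1 went from 2.72 (SE 0.73) to 4.02 (SE 0.13). Its adjusted p was 0.0254 with all libraries and 3.8e-05 without that library in edgeR's quasi-likelihood test. The call on Tap1 was lost when any one of the other 5 libraries was left out (adjusted p 0.0538 to 0.0665 in edgeR's quasi-likelihood test).

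Tap2 (ENSMUSG00000024339, chr17:34203527-34216321, plus strand), the partner subunit, started from a higher level and had the smaller log2 fold change. Its values were 5.12, 8.40 and 5.23 FPKM at 2 months and 18.4, 17.5 and 17.3 FPKM at 18 months. Its log2 fold change was 1.44 (SE 0.18), with an adjusted p of 0.0024 in edgeR's quasi-likelihood test, and 1.68 (SE 0.09) without 2-month replicate 2. The ratio of Tap1 to Tap2 in FPKM was 0.168, 0.597 and 0.166 at 2 months and 0.771, 0.890 and 0.897 at 18 months. Every 18-month ratio lay above every 2-month ratio, which gave the smallest p that the design allows (exact permutation p = 0.1, adjusted p = 0.143). Tap2 overlaps Gm15821 on the opposite strand, which had between 39 and 137 counts in any library.

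Tapbp (ENSMUSG00000024308, chr17:33915899-33926197, plus strand), which encodes tapasin, the bridge between TAP and the heavy chain, had the smallest log2 fold change of the 10 genes. It read 19.1, 22.3 and 19.3 FPKM at 2 months and 30.7, 27.3 and 28.8 FPKM at 18 months, a log2 fold change of 0.44 (SE 0.09) with an adjusted p of 0.0101 in edgeR's quasi-likelihood test. That is under the fold limit, so Tapbp was not called. Zbtb22 lies on the same strand and overlaps Tapbp by 3422 bases, with 1125 to 1405 counts at 2 months and 2401 to 2827 at 18 months, so reads in the overlap cannot be assigned to one gene with certainty. With FPKM rescaled to the same sum in every library (TPM) the log2 fold change of Tapbp was 0.08, on a scale on which the median of all genes lay at -0.33.

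Nlrc5 (ENSMUSG00000074151, chr8:94434356-94527272, plus strand), which encodes the transactivator of class I genes, was the gene most divided by 2-month replicate 2. It read 0.0394, 2.15 and 0.103 FPKM at 2 months and 4.83, 4.19 and 4.57 FPKM at 18 months. In counts these were 19, 1071 and 50 against 2762, 2243 and 2478. The one 2-month library stood 30.1 times above the mean of the other two and reached 47.3% of the 18-month mean, while the other two stood at 1.57% of it. Its log2 fold change was 2.57 (SE 1.38) with an adjusted p of 0.165 in edgeR's quasi-likelihood test, so Nlrc5 was not called with all libraries. Without 2-month replicate 2 it was called, at 5.85 (SE 0.41) and an adjusted p of 0.00019 in the same edgeR test. 9330175E14Rik on the opposite strand overlaps Nlrc5 by 748 bases and had 0, 186 and 4 counts at 2 months and 483, 364 and 397 at 18 months.

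**Figure D2:**
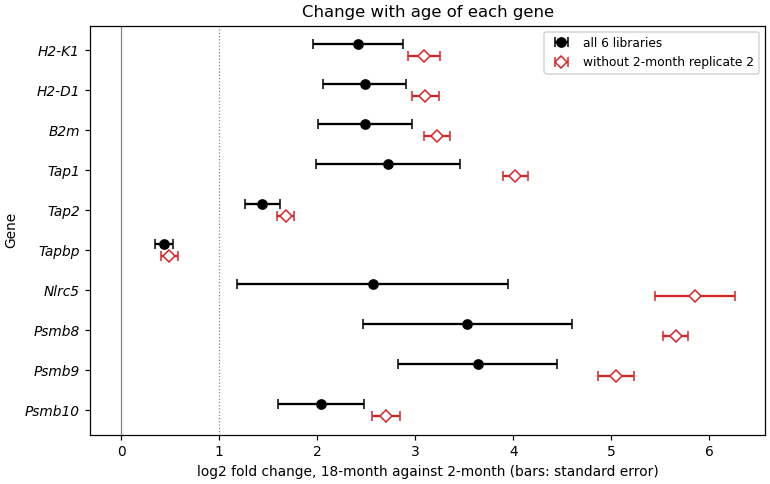
Log2 fold change of each gene, 18-month against 2-month, with its standard error, from all 6 libraries (filled circles) and without 2-month replicate 2 (open diamonds); the dotted line marks the fold limit of 1. Leaving the library out moved every estimate up, from 0.44 to 0.49 for Tapbp and from 2.57 to 5.85 for Nlrc5, and the error bars without it are shorter for all 10 genes, though nearly the same for Tapbp.

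Psmb9 and Psmb8 had the largest log2 fold changes of the 10 genes with all libraries, and Nlrc5 had the largest without 2-month replicate 2. Psmb8 (ENSMUSG00000024338, chr17:34197721-34201454, plus strand), which encodes LMP7 or beta5i, read 0.457, 5.95 and 0.529 FPKM at 2 months and 28.4, 26.4 and 25.9 FPKM at 18 months. It rose 11.5-fold, a log2 fold change of 3.53 (SE 1.07) with an adjusted p of 0.0364 in edgeR's quasi-likelihood test, and 50.5-fold, or 5.66 (SE 0.13), without 2-month replicate 2. As for Tap1, the call on Psmb8 was lost without any one of the other 5 libraries (adjusted p 0.0625 to 0.0828 in edgeR's quasi-likelihood test).

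Psmb9 (ENSMUSG00000096727, chr17:34181987-34187764, minus strand), which encodes LMP2 or beta1i, read 0.351, 2.75 and 0.493 FPKM at 2 months and 16.2, 14.6 and 14.9 FPKM at 18 months. Its log2 fold change was the largest of the 10 with all libraries, 3.64 (SE 0.81), with an adjusted p of 0.0136 in edgeR's quasi-likelihood test, and it was 5.05 (SE 0.19) without 2-month replicate 2. Psmb10 (ENSMUSG00000031897, chr8:105935735-105938104, minus strand), which encodes MECL-1 or beta2i, lies apart from the MHC and read 2.35, 7.52 and 2.74 FPKM at 2 months and 19.4, 16.6 and 17.7 FPKM at 18 months. Psmb10 rose by 2.04 on the log2 scale (SE 0.44), with an adjusted p of 0.0119 in edgeR's quasi-likelihood test, and by 2.70 (SE 0.14) without 2-month replicate 2. Gm16156, on the opposite strand along the whole of Psmb10, had 33 to 41 counts at 2 months and 10 to 12 at 18 months.

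Tap1 and Psmb9 stand head to head on chromosome 17 with 226 bases between their RefSeq starts, and in the deposited coordinates they overlap by 212 bases on opposite strands. The Tap1 window (chr17:34187306-34187605, plus strand, GRCm38.p6) is shown because it holds both starts, and the Psmb9 window (chr17:34187281-34187580, minus strand) covers nearly the same bases. Capitals mark CCAAT and TGACG.
Tap1: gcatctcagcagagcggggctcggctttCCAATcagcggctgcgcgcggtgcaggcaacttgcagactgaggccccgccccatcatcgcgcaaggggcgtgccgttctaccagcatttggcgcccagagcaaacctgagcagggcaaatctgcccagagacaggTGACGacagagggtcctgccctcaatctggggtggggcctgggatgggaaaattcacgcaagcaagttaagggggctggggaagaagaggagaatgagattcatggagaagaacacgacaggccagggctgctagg

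No kappaB match and no match to TTTCNNTTC or the interferon-stimulated response element was in the Tap1 window or the Psmb9 window, which says only that these letters are not there. Of the 10 genes, 8 had a window, and Tap2 and Nlrc5 had none. The other neighbours within 2000 bases of one of the 10 genes were Patl2 on the opposite strand of B2m (22 counts at most), Gm20496 (2 at most), Gm19412 (26 at most), Mir7072 (1 at most), and, without an overlap, Daxx, Ctrl and Lcat. Altogether 7 of the 10 genes lie on chromosome 17 between 33915899 and 35267499.

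The inducible subunits made up a larger share of the catalytic proteasome transcripts at 18 months. FPKM is scaled by length, so the 3 inducible and 3 constitutive subunits (Psmb5, Psmb6 and Psmb7) can be added within a library. The inducible share of their sum was 3.63%, 16.0% and 4.73% at 2 months and 29.2%, 28.4% and 28.9% at 18 months. The means were 8.12% ± 6.85 and 28.8% ± 0.365 (SD, n = 3 each) and differed by 20.7 percentage points, with no overlap (exact permutation p = 0.1, the smallest the design allows, adjusted p = 0.143). Without 2-month replicate 2 the difference was 24.7 percentage points. The sum of the constitutive subunits went from 75.8 to 85.1 FPKM at 2 months up to 144 to 155 FPKM at 18 months, with no overlap between the ages.

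Each inducible subunit was compared with the constitutive subunit whose place it takes. Psmb8 was 1.30%, 12.4% and 1.63% of the sum of Psmb8 and Psmb5 at 2 months and 24.5%, 26.0% and 24.9% at 18 months. Psmb9 was 1.05%, 8.83% and 1.60% of the sum with Psmb6 at 2 months and 30.2%, 27.6% and 28.8% at 18 months. Psmb10 differed from both in its level at 2 months, with 13.0%, 33.7% and 16.9% of the sum with Psmb7, and 38.8%, 34.6% and 38.0% at 18 months. For Psmb10, 2-month replicate 2 came close to the lowest 18-month library, and for Psmb8 and Psmb9 it lay well under it. Each of these 3 shares had an exact permutation p of 0.1 and an adjusted p of 0.143.

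**Figure D3:**
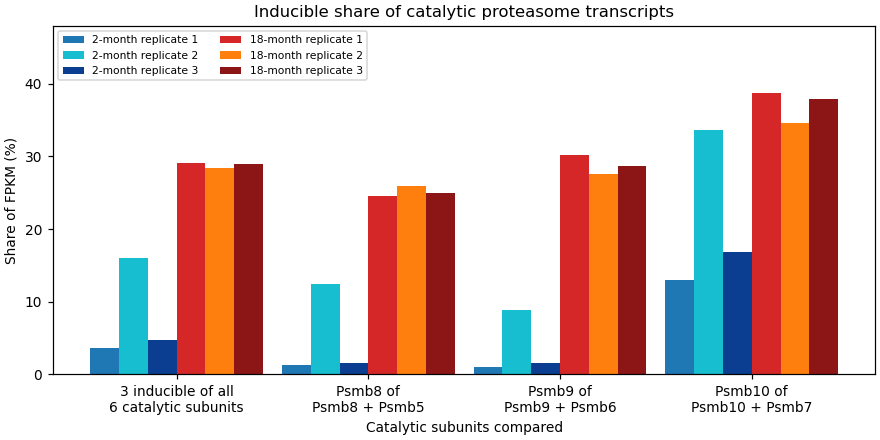
Inducible share (percent of FPKM) of catalytic proteasome transcripts in each library, for all 6 subunits and for each inducible subunit with its constitutive partner; bars start at 0 and each bar is 1 library. The 2-month bars of replicates 1 and 3 are the lowest in each set, and replicate 2 reaches 16.0% of all 6 subunits against 28.4% to 29.2% at 18 months.

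The constitutive subunits themselves were split. Psmb5 rose from 36.2 ± 5.14 to 80.3 ± 6.29 FPKM (SD, n = 3 each), by 1.07 on the log2 scale (SE 0.11, adjusted p 0.0016 in edgeR's quasi-likelihood test), and was called. Psmb7, at a log2 fold change of 0.97 (SE 0.11, adjusted p 0.0018 in edgeR's quasi-likelihood test), fell just short of the fold limit. Psmb6 had a log2 fold change of 0.21 with an adjusted p of 0.184 in edgeR's quasi-likelihood test. Psmb11, the subunit of the thymus, had 4 counts in 2-month replicate 1 and 0 in the other 5 libraries and was not tested.

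Beyond the 10 genes, a list of 70 other genes of the pathway was followed, of which 64 were tested, 18 were called higher and 4 lower, with a median log2 fold change of 0.71. Of all genes tested 14.9% were called higher and 21.3% lower, which are the shares to set beside each list below. Without 2-month replicate 2, 29 were called higher, as were 23.3% of all genes tested. Leaving out any one of the 18-month libraries gave 11 called higher (9.81% to 11.2% of all genes tested). Leaving out 2-month replicate 3 or 18-month replicate 2 gave 2 called lower. In those fits 26.4% and 27.1% of all genes tested were called in either direction, and 10% and 9.9% were called higher. Among the non-classical heavy chains, several of which are seen by NK cells and unconventional T cells, 6 of 12 tested were called higher and 0 lower, and 11 of 14 were called higher without 2-month replicate 2. Their summed FPKM was 28.9, 82.2 and 25.7 at 2 months and 244, 240.3 and 244 at 18 months. H2-T23 (Qa-1), the most abundant and the ligand of NKG2 receptors, went from 7.11 ± 8.06 to 59.1 ± 2.52 FPKM (SD, n = 3 each; log2 fold change 3.03, SE 0.80, adjusted p 0.0241 in edgeR's quasi-likelihood test). H2-Q10 had the largest called rise of the list, from 0.588 ± 0.848 to 11.5 ± 1.88 FPKM (SD, n = 3 each; log2 fold change 4.27, SE 1.21, adjusted p 0.0295 in the same edgeR test). These log2 fold changes, without 2-month replicate 2, were 4.48 for H2-T23 and 6.67 for H2-Q10. Along their longest transcripts, H2-T23 shared 0.831% of its windows of 150 bases with Gm7030, and H2-Q10 shared none.

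With all libraries the class I-like heavy chains had 4 of 7 called lower and 0 higher, where 21.3% of all genes tested were called lower. When that fit left out 2-month replicate 2, the list was split, with 4 of 7 called lower and 2 called higher. Those 2 were Cd1d1, which presents lipids, and Cd1d2, named after their values were seen. Their log2 fold changes were 4.38 and 3.54 (adjusted p 0.00064 and 0.0411 in edgeR's quasi-likelihood test). In that fit 23.3% of all genes tested were called higher and 44.6% in either direction. Cd1d2 had few counts, 0, 29 and 4 at 2 months and 26, 25 and 40 at 18 months. Cd1d1 read 9.19 FPKM in the library left out, within the 7.42 to 9.88 FPKM at 18 months. Cd1d2 read 0.324 FPKM there, within the 0.249 to 0.399 FPKM at 18 months. Fcgrt, which encodes the neonatal Fc receptor and pairs with beta-2-microglobulin, was the most abundant of the list. Fcgrt read 66.1, 51.1 and 61.0 FPKM at 2 months and 29.1, 24.7 and 23.9 FPKM at 18 months. It fell by 1.29 on the log2 scale (SE 0.16, adjusted p 0.0025 in edgeR's quasi-likelihood test). Azgp1, a secreted relative that needs no light chain, fell by 5.52 on the log2 scale (SE 1.36, adjusted p 0.0191 in edgeR's quasi-likelihood test), from 7.62 ± 4.52 to 0.174 ± 0.177 FPKM (SD, n = 3 each). Mr1 and Procr were the other two called lower, named here after their values were seen.

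Of the 5 chaperones and editors of peptide loading, 0 were called in either direction with all libraries. When 2-month replicate 2 was left out, Erap1 was called higher (log2 fold change 1.22) and Pdia3 lower, just past the fold limit, with adjusted p of 0.0020 and 0.0068 in edgeR's quasi-likelihood test. Calr and Canx, the lectin chaperones calreticulin and calnexin, had log2 fold changes of -0.58 and -0.56 (adjusted p 0.116 and 0.07 in edgeR's quasi-likelihood test). Pdia3, the disulfide isomerase of the loading complex, was at -0.86 (adjusted p 0.0357 in the same edgeR test), and Tapbpl (TAPBPR), a relative of tapasin, at 0.87 (adjusted p 0.0047), both under the fold limit. Erap1, the peptidase that trims peptides in the endoplasmic reticulum, was at 0.98 (adjusted p 0.0141 in the same edgeR test), also under it. By an adjusted p below 0.05 alone, in edgeR's quasi-likelihood test, 2 of the 5 were higher, as were 23.4% of all genes tested, and 1 was lower, and 4 had an unadjusted p below 0.05. DESeq2 and limma on log2(FPKM + 0.1) each called 1 of the 5. Other peptidases, which trim or destroy peptides, had 0 of 7 called by edgeR, DESeq2 or limma and 3 of 7 with an unadjusted p below 0.05 in edgeR. Of all 20397 genes tested 10457 had an adjusted p below 0.05 in edgeR's quasi-likelihood test. At least as many had an unadjusted p below 0.05, so the 3 of 7 do not exceed the share of all genes. Lnpep, named after its values were seen, had the largest change of the list, a log2 fold change of -0.81 (adjusted p 0.0258 in edgeR's quasi-likelihood test). Nrdc (listed as Nrd1), the most abundant, had a log2 fold change of 0.37 (adjusted p 0.0319 in edgeR's quasi-likelihood test).

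Proteasome activators and assembly factors had 3 of 9 called higher and 0 lower, where 14.9% of all genes tested were called higher and 21.3% lower. Psme1, an interferon-inducible subunit of the PA28 activator, rose most, from 10.6 ± 3.83 to 36.3 ± 0.991 FPKM (SD, n = 3 each; log2 fold change 1.72, SE 0.22, adjusted p 0.0025 in edgeR's quasi-likelihood test). Psme3, which encodes the nuclear activator PA28 gamma and was the most abundant, had a log2 fold change of 1.32 (SE 0.17, adjusted p 0.0028 in the same edgeR test). Psme2, the partner of Psme1, was called at 1.18 (SE 0.13, adjusted p 0.0019 in edgeR's quasi-likelihood test) and is named after its values were seen. Psme1 was 0.543, 0.836 and 0.583 times Psme2 at 2 months and 0.834, 1.05 and 1.01 times at 18 months, with an overlap (exact permutation p = 0.2, adjusted p = 0.25).

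Of 15 listed factors that bind or act at class I promoters, 5 were called higher and 0 lower, and 8 were called higher without 2-month replicate 2. Of all genes tested 14.9% were called higher and 21.3% lower, and 23.3% were called higher without that library. Rela, the most abundant, had a log2 fold change of 0.30 (adjusted p 0.0841 in edgeR's quasi-likelihood test). Ciita, the transactivator of MHC class II and a relative of Nlrc5, had the largest called rise, from 0.204 ± 0.214 to 1.41 ± 0.471 FPKM (SD, n = 3 each; log2 fold change 2.75, SE 0.82, adjusted p 0.035 in edgeR's quasi-likelihood test), and 3.97 without 2-month replicate 2. Irf9 of the interferon response, Irf1 and the CCAAT-binding subunit Nfyb, named after their values were seen, were also called higher. Among 6 tested genes of the interferon-gamma signal 3 were called higher, and the receptor chain Ifngr1 was both the most abundant and the one that rose most (14.6 ± 6.91 to 64.7 ± 1.62 FPKM, SD, n = 3 each; log2 fold change 2.10, SE 0.30, adjusted p 0.0034 in edgeR's quasi-likelihood test). Ifng itself was listed at 0 FPKM in all 2-month libraries and at 0.112, 0.0404 and 0.0489 FPKM at 18 months, and was not tested.

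**Figure D4:**
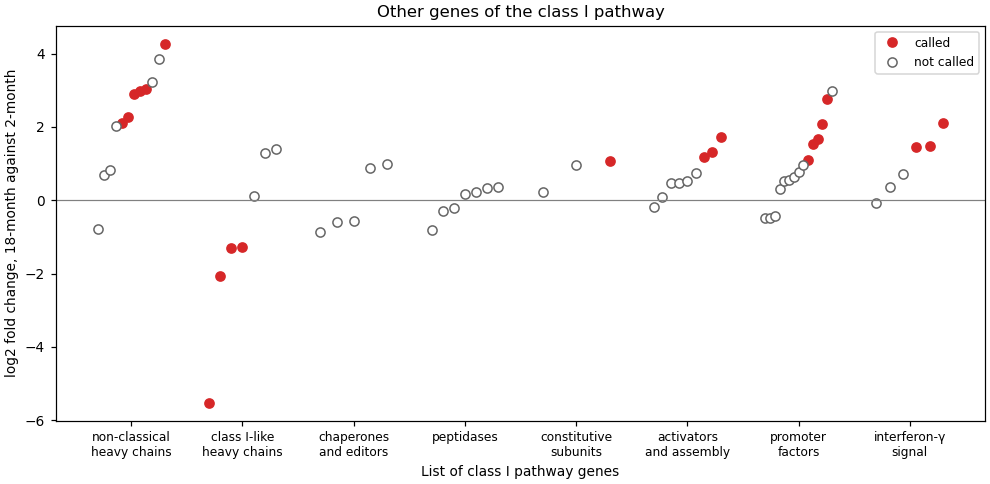
Log2 fold change, 18-month against 2-month, of the 64 tested genes of 8 pathway lists; each point is 1 gene and filled points were called. Called points lie above 0 among non-classical heavy chains, constitutive subunits, activators, promoter factors and interferon-gamma genes, below 0 among class I-like heavy chains, and are absent among chaperones and peptidases.

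The level of 2-month replicate 2 was intermediate for all 10 genes, above both other 2-month libraries and below all 18-month libraries, as it was for 27.4% of all genes tested. As a share of the 18-month mean it ran from 18.0% for Psmb9 to 76.9% for Tapbp, with 30.1% to 32.5% for H2-K1, H2-D1 and B2m. The summed markers of blood cells in the same library stood at 14.9% of the 18-month mean for all leukocytes, 8.11% for neutrophils, 26.8% for monocytes and macrophages, 27.8% for dendritic cells and class II, 12.1% for T and NK lymphocytes and 20.3% for the erythroid lineage. The B lymphocyte markers were higher in that library (105 FPKM) than at 18 months (69.6 to 85.1 FPKM), and the endothelial markers, at 46.5 FPKM, were above the 39.0 to 43.3 FPKM at 18 months. In the other two 2-month libraries the leukocyte sum was 0.929% and 1.68% of the 18-month mean. The most abundant markers were Arhgdib for leukocytes, S100a9 for neutrophils, Ly6c2 for monocytes and macrophages, Cd74 for class II, Nkg7 for T and NK lymphocytes, Hbb-bs for the erythroid lineage, Cd79b for B lymphocytes, Pecam1 for endothelium, Prg4 for chondrocytes, Acta1 for muscle and Ibsp for osteoblasts. No defining marker was at 3 counts or fewer in all 2-month libraries.

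With all libraries 3 of 8 leukocyte markers were called higher, as were 0 of 14 neutrophil, 3 of 11 macrophage, 3 of 9 class II, 0 of 9 B lymphocyte, 7 of 13 T and NK, 3 of 9 erythroid and 2 of 8 endothelial markers. Of all genes tested 14.9% were called higher and 21.3% lower, and 23.3% were called higher without 2-month replicate 2. In either direction DESeq2 called 41.9% of all genes tested and limma on log2(FPKM + 0.1) 40%. At an unadjusted p below 0.05, edgeR gave 3 neutrophil and 0 B lymphocyte markers, DESeq2 called 13 and 0 of them, and limma on log2(FPKM + 0.1) called 14 and 1. Of all 20397 genes tested 10457 had even an adjusted p below 0.05 in edgeR, so neither edgeR count exceeds the share of all genes. Without 2-month replicate 2 edgeR called 8 leukocyte, 14 neutrophil, 10 macrophage, 8 class II, 8 B lymphocyte, 13 T and NK, 9 erythroid and 7 endothelial markers higher. Of muscle markers 6 of 7 and of osteoblast and osteocyte markers 3 of 9 were called lower, and 4 of the latter were called higher without 2-month replicate 2. The part of these cell types in the levels of the class I genes was not tested.

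**Figure D5:**
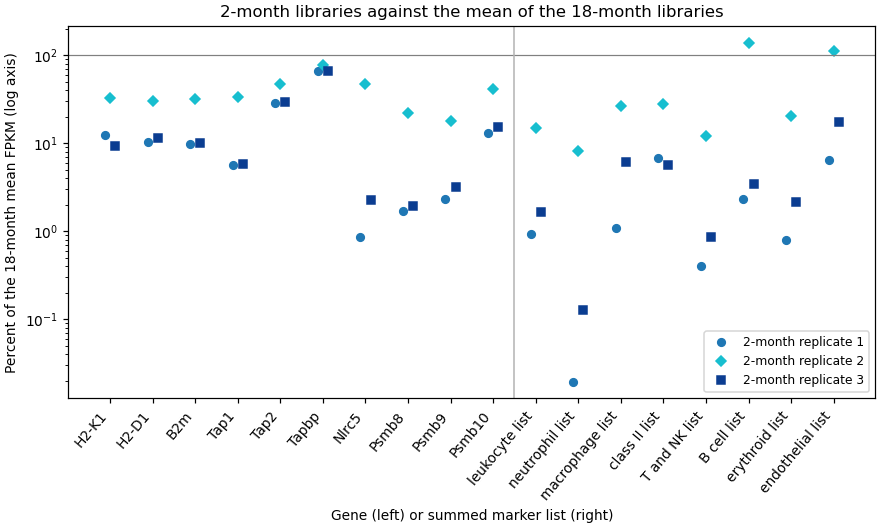
Each 2-month library as a percent of the mean 18-month FPKM (log axis), for the 10 genes (left) and for summed marker lists (right); the line marks 100%. Replicate 2 is the highest 2-month point for each of the 10 genes and for each of the 8 plotted lists, which are of blood and endothelial cells, and in replicates 1 and 3 the classical heavy chains and B2m stand near 10% while the leukocyte list stands at 0.929% and 1.68%.

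The class I genes were also set against Ptprc, which encodes CD45 and marks nucleated blood cells. Ptprc read 0.033, 5.45 and 0.378 FPKM at 2 months and 28.6, 22.2 and 21.4 FPKM at 18 months. The log2 ratio of B2m to Ptprc was 11.84, 6.17 and 8.36 at 2 months and 5.42, 5.82 and 5.82 at 18 months. For 8 of the 10 genes every 18-month ratio lay below every 2-month ratio, as it did for 85.4% of all genes tested, so this count is near the share of all genes. Psmb8 and Psmb9 were the exceptions, with log2 ratios to Ptprc of 3.78, 0.13 and 0.49 and of 3.40, -0.99 and 0.38 at 2 months, against -0.01, 0.25 and 0.27 and -0.82, -0.60 and -0.52 at 18 months. In 2-month replicate 2 Psmb9 stood lower against Ptprc than in every 18-month library, and Psmb8 lower than in 18-month replicates 2 and 3. Without that library the ratios of all 10 genes were lower at 18 months, and the share of all genes was not computed for that setting. Set against Coro1a in place of Ptprc, all 10 were lower, as were 88.7% of all genes tested, so neither count sets the 10 genes apart.

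Among themselves the 10 genes followed nearly one profile. The Pearson r of a gene's log2(FPKM + 0.1) with the mean of the 10 standardized profiles, over the 6 libraries, ran from 0.976 for Nlrc5 to 0.999 for Psmb9. These libraries share the mixture of cells described above, and the 10 genes are part of the mean, so the values are a description. Of 13890 other tested genes whose FPKM averaged 1 or more, the closest to that mean were Ncoa4-ps, Abca13, Cd101, Arid5a and Rab32 (r of 0.9998 or more), and 3626 had an r above 0.95.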

How the data were processed

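RNA of articular cartilage from wildtype mice was sequenced by the authors from both ends after poly(A) selection, with strand-specific libraries and molecular identifiers. The submitters' processing notes name cutadapt 1.9, HISAT2 2.0.4, UMI-tools, StringTie 1.3.4d, DESeq2 and edgeR without their roles, and the genome build and annotation are not given in the sources used here. The deposited table gives raw counts for each gene in each library and FPKM, which the authors scaled by transcript length and library size. It has no columns of the authors' own comparisons, and 0 columns of values per library were left out. Deposited coordinates were the same as in GENCODE M21 (GRCm38) for 29627 of 33865 genes found there and for 8 of the 10 genes reported, all but Tapbp and Psmb10.

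The libraries labelled 2-month and 18-month (3 each) were compared in R 4.3.3 with edgeR 4.0.16 on the counts (TMM, filterByExpr, quasi-likelihood test, no replicate block), with Benjamini-Hochberg adjustment over 20397 genes. A standard error is the absolute log2 fold change over the square root of F. Shares and ratios were taken from FPKM and tested with an exact permutation test. Alternatives were median-of-ratios size factors, total counts, no filter, a minimum mean of 1 FPKM, DESeq2 1.42.0, limma 3.58.1 on log2(FPKM + 0.1), log2(FPKM + 1) and log2(TPM + 0.1) with a minimum mean of 0.1 FPKM, a replicate block, glmTreat against a fold change of 2, leaving out each library, the share of counts, Coro1a in place of Ptprc and a pseudocount of 0.1 in that ratio. The fit was tested on simulated counts for this comparison, where edgeR recovered 23 of 66 genes changed by 2 on the log2 scale, 36 of 67 changed by 3 and 46 of 66 changed by 4, with 4 false calls among the 20301 genes fitted. DESeq2 found more of the genes simulated to differ, 163 of 200 against 105 of 199 by edgeR, but it wrongly called 117. By limma 110 of 199 were found and 5 were wrongly called. The simulation altered no more than 200 genes, whereas 36.3% of genes tested were called in the data. Its rates may therefore not hold for the data.

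The 10 genes and all lists were chosen with earlier results of these data known. Named were the 10 genes, every gene of pathway lists of up to 5 genes, the most abundant gene and the largest called rise and fall of longer lists, the most abundant gene of each marker list, the 5 genes of most similar profile and genes overlapping the 10 or within 2000 bases of them. Ahsp, on the erythroid list, was not matched in the table. One of the listed factors is counted but not reported here by name. Promoter sequences are from RefSeq (GRCm38.p6), which held windows for 8 of the 10 genes. Windows of 150 bases shared between genes were searched in GENCODE M21 transcripts. Labels gave the replicate number, and its pairing across ages was checked by the correlation of deviations from the group means, which was 0.034, 0.044 and -0.024 for the same-numbered libraries, so the numbers were not taken as pairs. Of the library pairs of one age, the median chi-square over counting noise was 6.32 for 18-month replicates 2 and 3 and 13.1 to 48.7 for the others. No pair was thus a recount of the same library, and all 6 were counted as separate. These values cannot show whether libraries came from separate animals. The count behind each value sets its precision. For the 10 genes the lowest was 19, and some named genes of the pathway lists had lower counts, down to 0.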

Additional observations from a re-analysis of the deposited data

How the results depend on the processing

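Of 160 values of the 10 genes' log2 fold changes under the alternatives, 142 kept their direction and their side of the threshold, 14 lost the call, 4 gained it and 0 changed direction. The number of genes called higher was 8 with all libraries, 7 to 9 under the other settings with all libraries (8.19% to 20.3% of all genes tested), 5 under glmTreat (6.7%), 9 without 2-month replicate 2 (23.3%) and 6 without any one of the other libraries (9.81% to 12.5%). Under glmTreat the adjusted p was 0.0772 for Tap1, 0.0882 for Psmb8 and 0.0601 for Psmb10, and with no filter on low counts it was 0.0514 for Psmb8 in edgeR. Nlrc5 was called by DESeq2 (adjusted p 0.0418) and by limma on log2(FPKM + 0.1) (adjusted p 0.028) and log2(FPKM + 1) (adjusted p 0.011), and over all alternatives with every library its adjusted p ran from 0.011 to 0.342. The cause was not tested.

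Of the other pathway genes, 18 were called higher and 4 lower (14.9% and 21.3% of all genes tested). With glmTreat 4 were called higher (6.7% of all genes tested) and 1 lower, where 19.8% of all genes tested were called in either direction. When 1 library was left out the numbers ran from 11 to 29 higher (9.81% to 23.3% of all genes tested) and from 2 to 5 lower. In those fits 26.4% to 44.6% of all genes tested were called in either direction. The difference in the inducible share was 20.7 percentage points in FPKM, 30.6 in counts, which are not scaled by length, and 18.5 to 24.7 when 1 library was left out. Between 8 and 10 genes had every 18-month ratio to Ptprc below every 2-month ratio when 1 library was left out, and 8 with a pseudocount of 0.1. With the pseudocount 91.7% of all genes tested had it too, and with 1 library left out that share was not computed.

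With the replicate block 8 of the 10 genes were called and 6032 genes in all, against 7401 without it. The block left Nlrc5 uncalled, at a log2 fold change of 4.53. Rescaling to TPM moved the median of all genes to -0.33 and that of the 10 genes to 2.30. Of all called genes, 41.2% were higher, which became 50.6% and 57.8% with limma at pseudocounts of 0.1 and 1, 34.8% on TPM, 33.9% with glmTreat and 52.2% without 2-month replicate 2. With 3 libraries a group, p-values of single ratios could not pass 0.05, and low levels, as the 19 and 50 counts of Nlrc5 in 2-month replicates 1 and 3, rest on little depth.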

Other observations

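Among the 12 tested non-classical heavy chains, H2-Q1 and H2-Q2 had 0 counts in 2-month replicate 2, where the other 10 were detected. H2-Q1 had 84 and 70 counts in 2-month replicates 1 and 3 and 950, 836 and 1021 counts in 18-month replicates 1, 2 and 3. H2-Q2 had 21 and 20 counts in 2-month replicates 1 and 3 and 14, 16 and 0 counts at 18 months. Of 150-base windows along the longest H2-Q1 transcript, 4.64% occurred exactly in transcripts of H2-D1 or H2-Q2. Along the longest H2-Q2 transcript 0% occurred in those of another gene, so the bases shared with H2-Q1 lie in another H2-Q2 transcript. The H2-Q2 counts are therefore not free of shared sequence. These 2 genes were picked out after their values were seen, and the cause was not tested.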
